A study of Mus musculus with 15 samples.

Results

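The seed family of miR-25, miR-92 and miR-363 is a set of mature miRNAs that begin with the same seed but come from different loci. Its members here are mmu-miR-25-3p, mmu-miR-92a-3p, mmu-miR-92b-3p and mmu-miR-363-3p (written below without the species prefix), taken as the array entries that carry these names, and they make up 4 of the 1122 mouse miRNAs on the array. They were measured while mouse epiblast stem cells (EpiSC, pluripotent cells of the post-implantation epiblast) differentiated in culture over 14 days. The EpiSC came from mice with a GFP reporter of Pitx3, a gene of midbrain dopaminergic neurons, and all groups share this origin. The groups were cells at day 5, before any morphogen; treated cells at day 9 and at day 14, which received SHH and FGF8 from day 5; and control cells at day 9 and at day 14, which received neither. Each group has 3 arrays, described as primary cells, and whether the 3 came from separate cultures is not given in the sources used here, so the p-values measure the spread between these samples, which may be technical. SHH and FGF8 were given together, so their effects cannot be told apart, and the RNA was not stated to come from sorted GFP-positive cells.

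A miRNA guides the silencing complex to mRNAs mainly by pairing of its seed, so miRNAs with 1 seed are predicted to share many targets. In the mouse genome the members other than miR-92b lie in clusters that arose by duplication. The miR-17-92 cluster is known for promoting proliferation, and in the developing mouse cortex miR-92a and miR-92b are known to limit the transcription factor Tbr2 (Eomes) in progenitors. The related miR-106b-25 cluster lies within Mcm7, a gene for a subunit of the replication helicase.

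The mature sequences are shown because the seed defines the family and the remaining bases set its members apart. They are RefSeq sequences, located on GRCm38.p6, and bases 2 to 8, the seed, are in capitals.
miR-92a-3p: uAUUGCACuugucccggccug
miR-92b-3p: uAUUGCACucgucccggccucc
miR-25-3p: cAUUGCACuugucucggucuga
miR-363-3p: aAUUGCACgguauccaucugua
All 4 names matched a RefSeq entry. The mature miR-92a-3p lies at chr14:115044476-115044496 (plus strand) in Mir92-1 and, with the same sequence, at chrX:52741854-52741874 (minus strand) in Mir92-2, so its probes cannot tell the 2 loci apart. Mir92-1 lies inside the non-coding host gene Mir17hg with 5 other hairpins within 1000 bases. The mature miR-363-3p lies at chrX:52741697-52741718 (minus strand), in the same cluster as Mir92-2, with Mir106a, Mir18b, Mir20b and Mir19b-2. The mature miR-25-3p lies at chr5:138165332-138165353 (minus strand), inside Mcm7, beside Mir93 and Mir106b. The mature miR-92b-3p lies at chr3:89227126-89227147 (minus strand), with 0 other hairpins within 1000 bases and the gene Thbs3 nearby.

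Against miR-92a-3p, counted from 1 at the 5′ end over its 21 bases, miR-92b-3p differs at 2 positions (U10C and G21C) and miR-25-3p at 3 positions (U1C, C14U and C18U). The difference from miR-363-3p covers 11 of 21 positions, none of them in the seed. The seed reads AUUGCAC, and the mRNA letters that pair with it read GUGCAAU. Of 1679 mature mouse names in the RefSeq table, 6 carry this seed: the 4 members, miR-367-3p of the miR-302 cluster and miR-32-5p.
miR-367-3p: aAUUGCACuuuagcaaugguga
miR-32-5p: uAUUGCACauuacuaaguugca
These are the seed mates outside the family as defined here, and their values are given after those of the members.

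A level below is the log2 of the scaled signal: the mean signal of the miRNA's brightest probe, relative to the 75th percentile of that array among the 354 mouse probes detected above background on each of the 15 arrays. Signals under a common floor were set to it (-4.30 on this scale). A miRNA was called when its adjusted p was under 0.05 in limma, with Benjamini-Hochberg adjustment over 306 tested miRNAs, those detected above background throughout 1 or more groups; all 4 members are among them. Levels of different members come from different probes and are not set against each other. The 75th percentile ranged from 149 to 336 intensity units over the arrays, 239 to 333 miRNAs per array were above background, and no spot was saturated. Levels on arrays of 1 group correlated at 0.980 to 0.998 across the 306 tested miRNAs. The arrays lay on 2 slides: slide 1 carried all of day 5 and treated day 9 together with replicates 1 and 2 of treated day 14, while slide 2 carried treated day 14 replicate 3 plus all controls. Treated and control cells at day 9 therefore share no slide, and treatment and slide cannot be told apart there without the treated day 14 arrays. Only treated day 14 spans both slides, so a slide block is estimated from its 3 arrays alone. The treated minus control difference at day 14 is then replicate 3 against the controls.

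Markers of the cell types were checked on the same arrays. The summed scaled signal of 5 neural miRNAs (miR-124-3p, miR-9-5p, miR-9-3p, miR-128-3p and miR-137-3p) was 3.98 to 4.29 at day 5. At day 9 it reached 7.73 to 8.06 in treated and 13.7 to 15.3 in control cells, and at day 14 it reached 15.2 to 17.7 in treated and 24.2 to 28.7 in control cells. The summed signal of 5 miRNAs of primed pluripotency was 2.02 to 3.00 at day 5 and at most 0.289 in treated and 0.258 in control cells at day 14; 1 of the 5 is the seed mate miR-367-3p. None of the 6 blood and endothelium or 3 muscle markers on the array was above background on any array. The summed signal of 5 miRNAs of naive pluripotency was 0.430 to 0.457 at day 5 and at most 0.184 in any later group. In the endoderm and mesenchyme lists, 1 of 4 markers each was above background, and only in treated groups. The summed mesenchyme signal was 0.116 to 0.124 in treated and 0.0290 to 0.0379 in control cells at day 9, and 0.0897 to 0.122 in treated and 0.0208 to 0.0482 in control cells at day 14. The summed endoderm signal was 0.698 to 0.770 in treated day 9 cells against 0.0529 to 0.0646 in control day 9 cells, and 0.453 to 0.524 in treated day 14 cells against 0.0662 to 0.0827 in control day 14 cells. The summed glial signal (miR-219-5p and miR-338-3p) was 3.03 to 3.59 at day 5. It was 4.73 to 5.02 in treated and 1.76 to 2.12 in control cells at day 9, and 2.28 to 2.94 in treated day 14 cells against 1.57 to 1.63 in control day 14 cells. At day 14 the 2 glial miRNAs went opposite ways. The mean log2 level of miR-219-5p was 1.33 in treated and 0.55 in control cells, that of miR-338-3p -3.30 and -2.90. The part of these cell types in the differences below was not tested, and in bulk RNA fewer cells of a type and less RNA per cell cannot be told apart.

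Most comparisons between days gave lower levels of the members at the later day, whereas between treated and control cells the members parted. At day 14, miR-92a-3p was lower in treated than in control cells, by 0.54 on the log2 scale. The level of miR-363-3p was lower too, by a size that the floor sets, since all 3 treated arrays stood at it. The level of miR-92b-3p was higher by 1.05, and the difference of 0.22 for miR-25-3p did not pass the test. At day 9, miR-25-3p was higher in treated cells by 0.34 and miR-92a-3p lower by 0.29, while miR-92b-3p and miR-363-3p were not called. These day 9 groups share no slide, and with slide as a block neither of the 2 calls held (0.22 and -0.21, adjusted p = 0.40 and 0.39).

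**Figure D1:**
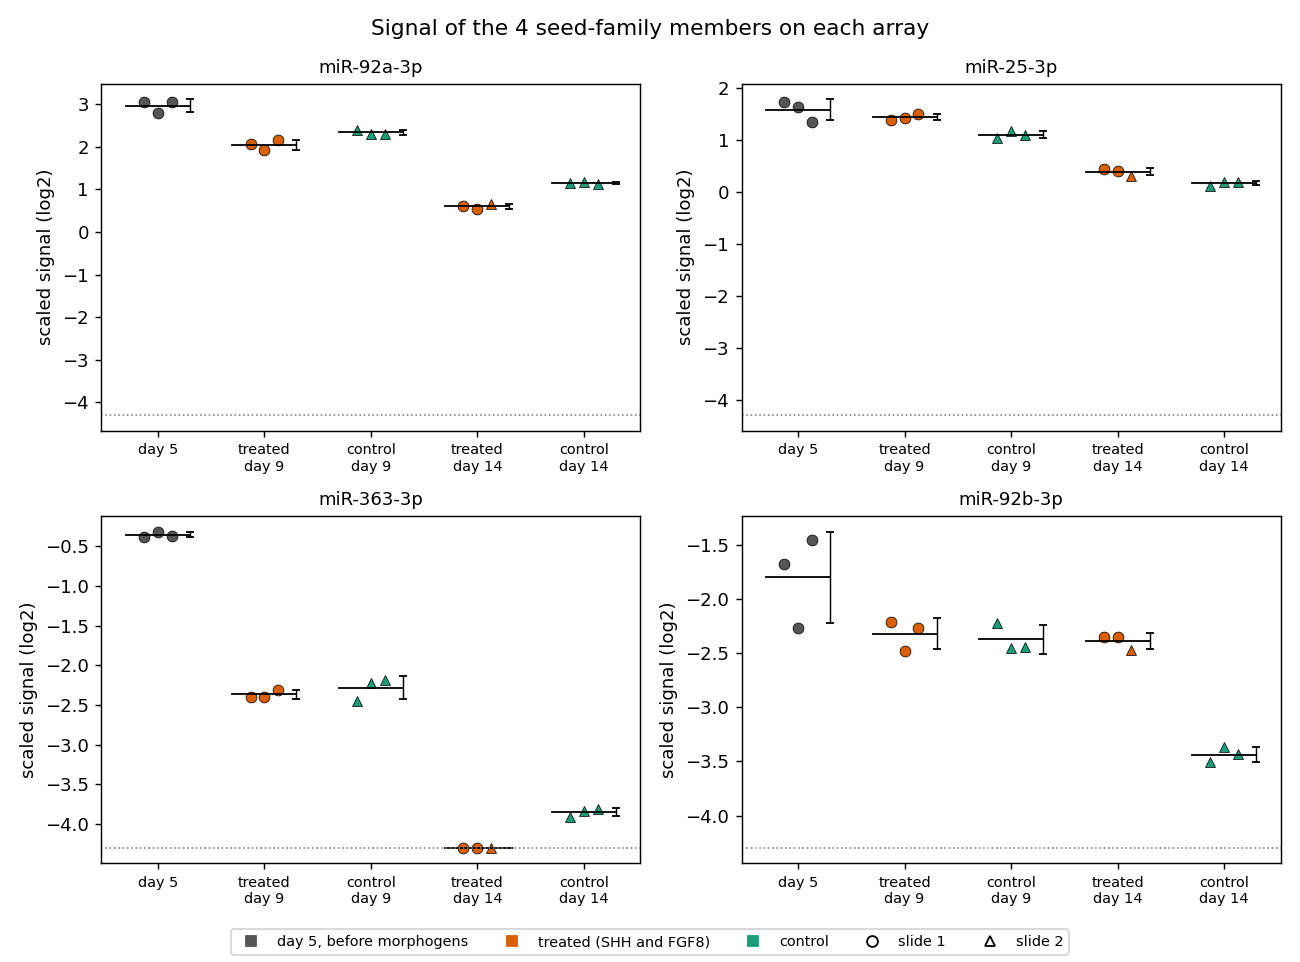
Level of each member (log2 scaled signal, vertical axis) on the 15 arrays, by group; points are arrays, circles lie on slide 1 and triangles on slide 2, horizontal bars are group means, error bars are 1 SD (n = 3) and the dotted line is the floor at -4.30. The panels have their own vertical ranges. The 3 treated day 14 arrays of miR-92b-3p (-2.47 to -2.35) lie above the 3 control day 14 arrays (-3.51 to -3.37), while those of miR-92a-3p (0.54 to 0.66) lie below theirs (1.12 to 1.16).

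The member miR-92a-3p, a product of miR-17-92 and of its X-linked copy, had levels of 3.05, 2.79 and 3.05 at day 5. At day 9 they were 2.06, 1.93 and 2.16 in treated cells and 2.40, 2.31 and 2.29 in control cells. At day 14 they were 0.61, 0.54 and 0.66 in treated cells and 1.15, 1.16 and 1.12 in control cells. Every treated array lay below every control array of its day. The 5 groups ran in the order day 5, control day 9, treated day 9, control day 14 and treated day 14, with no overlap between neighbours. The treated minus control difference was -0.29 ± 0.08 at day 9 (SE, adjusted p = 0.0089 in limma; not called with slide as a block, -0.21, or with quantile normalization, -0.17) and -0.54 ± 0.08 at day 14 (adjusted p = 9.4e-05). The change of that difference between the days, -0.25 ± 0.12, did not pass the test (adjusted p = 0.11). From day 5 the level of miR-92a-3p fell by 0.92 to treated day 9 and by 0.63 to control day 9, and from day 9 to day 14 it fell by 1.44 in treated and by 1.19 in control cells. Over the whole course these group means lie 5.14-fold lower in treated day 14 cells and 3.53-fold lower in control day 14 cells than at day 5.

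For miR-25-3p, made from within Mcm7, the levels at day 5 were 1.73, 1.64 and 1.34. At day 9 they were 1.38, 1.42 and 1.49 in treated cells and 1.03, 1.16 and 1.097 in control cells. At day 14 they were 0.45, 0.40 and 0.31 in treated cells and 0.11, 0.19 and 0.19 in control cells. Treated day 9 arrays overlapped those of day 5, whereas control day 9 arrays lay below both, and at both days all treated arrays lay above all control arrays. The treated minus control difference was 0.34 ± 0.09 at day 9 (SE, adjusted p = 0.0060 in limma). That call was lost with slide as a block (0.22, adjusted p = 0.40) and with normexp background correction (0.29, adjusted p = 0.054), and the all-probe percentile turned the direction (-0.24, adjusted p = 0.085). At day 14 it was 0.22 ± 0.09, just outside the threshold (adjusted p = 0.057). It passed there when day 5 replicate 1, day 5 replicate 3 or treated day 14 replicate 3 was left out (adjusted p = 0.040, 0.0075 and 0.047), and on slide 2 alone treated day 14 replicate 3 exceeded the mean of the 3 control arrays by 0.14. In treated cells the decline came mostly after day 9, as treated day 9 minus day 5 was -0.14 and was not called (adjusted p = 0.20). Control day 9 minus day 5 was -0.48 (adjusted p = 0.00041), a call lost with slide as a block. From day 9 to day 14 the level fell by 1.05 in treated and by 0.93 in control cells. Over the course the level of miR-25-3p came out 2.28-fold lower in treated and 2.65-fold lower in control day 14 cells than at day 5.

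The X-linked miR-363-3p had levels of -0.38, -0.32 and -0.36 at day 5. At day 9 they were -2.40, -2.40 and -2.30 in treated cells and -2.45, -2.22 and -2.18 in control cells. At day 14 all 3 treated arrays stood at the floor of -4.30, and control arrays were at -3.91, -3.83 and -3.81. The day 5 arrays stood far above all others, the day 9 groups overlapped, and at day 14 control arrays lay above the floor. The probe was above background on 1 of 3 treated day 14 arrays and on 3 of 3 control day 14 arrays, with intensities of 10.4 to 14.0 in treated cells against 15.04 to 19.0 in control cells. The difference of -0.45 ± 0.07 at day 14 (SE, adjusted p = 0.00017 in limma) is thus set by the floor on the treated side. The other miR-363-3p probe was at the floor in both day 14 groups, with a difference of 0.00. At day 9 the difference of -0.08 ± 0.07 was not called (adjusted p = 0.34, 95% interval -0.24 to 0.07). That interval holds for the scaling used here. With the all-probe percentile and with quantile normalization the day 9 difference lay below it and was called lower (values in the closing section). From day 5 to day 9 the level of miR-363-3p fell by 2.01 in treated and by 1.93 in control cells, a 4.03-fold and a 3.80-fold decrease, with adjusted p of 1.9e-11 and 3.6e-11.

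The member with a locus of its own, miR-92b-3p, had levels of -1.67, -2.27 and -1.46 at day 5. At day 9 they were -2.21, -2.48 and -2.27 in treated cells and -2.22, -2.46 and -2.44 in control cells. At day 14 they were -2.35, -2.35 and -2.47 in treated cells and -3.51, -3.37 and -3.43 in control cells. Treated day 9, control day 9 and treated day 14 arrays shared 1 range, day 5 reached above it and overlapped it, and only control day 14 arrays lay apart, below all others. The difference at day 14 was 1.05 ± 0.16 (SE, a 2.07-fold higher level in treated cells, adjusted p = 9.7e-05 in limma), against 0.05 ± 0.16 at day 9 (adjusted p = 0.85, 95% interval -0.29 to 0.39). The change between the days, 1.00 ± 0.22, also passed (adjusted p = 0.0045). From day 9 to day 14 the level of miR-92b-3p fell by 1.07 in control cells (adjusted p = 5.3e-05), while treated day 14 minus treated day 9 was -0.07 (adjusted p = 0.72, 95% interval -0.41 to 0.27).

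The signal behind miR-92b-3p was dim, at intensities of 48.8 to 61.8 in treated day 14 cells against 20.7 to 24.7 in control day 14 cells. Of its 4 probes only 1 was above background on any array, with 10 spots, of which 9 or 10 were above background on each control day 14 array. With normexp background correction and an offset of 50 intensity units, more than the whole control signal, the day 14 difference was 0.30 (adjusted p = 0.19) and was no longer called, and with a floor 4 times higher both day 14 groups lay at the floor. With slide as a block the day 14 difference was 0.96, which is treated day 14 replicate 3 minus the mean of the 3 control arrays on slide 2. That value thus rests on 1 treated array. Whether the probe also binds miR-92a-3p, from which miR-92b-3p differs at 2 of 21 bases, was not tested.

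Counted over the family, 1 of 4 members was called higher and 1 lower in treated than in control cells at day 9, where 56.2% of the 306 tested miRNAs were called (40.8% higher and 15.4% lower). At day 14, 1 member was called higher and 2 lower, where 53.3% of the tested miRNAs were called (39.2% higher and 14.1% lower). The groups did not overlap for 2 members at day 9 and for 4 at day 14, against 71.2% and 55.9% of all tested miRNAs, so with 4 members these counts say little beyond the single values. The change of the treatment difference between day 9 and day 14 was called for 2 members, miR-92b-3p upward and miR-363-3p downward (-0.36 ± 0.10, adjusted p = 0.015 in limma), where 33% of the tested miRNAs were called (17% upward and 16% downward). The miR-363-3p value rests on the floor in treated day 14 cells: it turned to 0.056 with the all-probe percentile and 0.064 with a floor 4 times higher, and it was not called with quantile normalization (-0.11), normexp (-0.27) or the mean of its probes (-0.13). That of miR-92b-3p was not called with normexp (0.26) or the higher floor (-0.011). The median treated minus control difference was -0.02 over the members and 0.25 over all tested miRNAs at day 9, and -0.11 over the members and 0.22 over all tested at day 14.

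This background depends on the scaling. When the percentile was taken over all mouse probes, the median over all tested miRNAs became -0.25 at day 9 and -0.08 at day 14, and quantile normalization gave 0.00 at both days. The calls at day 9 then split into 41 higher and 121 lower with the all-probe percentile and into 65 and 88 with quantile normalization, against 125 and 47 here; at day 14 they split into 37 and 77, and 71 and 65, against 120 and 43 here. Under the all-probe percentile the difference of miR-25-3p was -0.24 at day 9 and -0.16 at day 14, neither called, so its direction flips with the scaling, as does that of the median over all tested miRNAs. The miR-92b-3p difference at day 9, which was not called, also turned, to -0.53 with the all-probe percentile and to -0.38 with quantile normalization, both called (adjusted p = 0.0077 and 0.037). The directions at day 14 of miR-92a-3p, miR-363-3p and miR-92b-3p were kept under both.

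**Figure D2:**
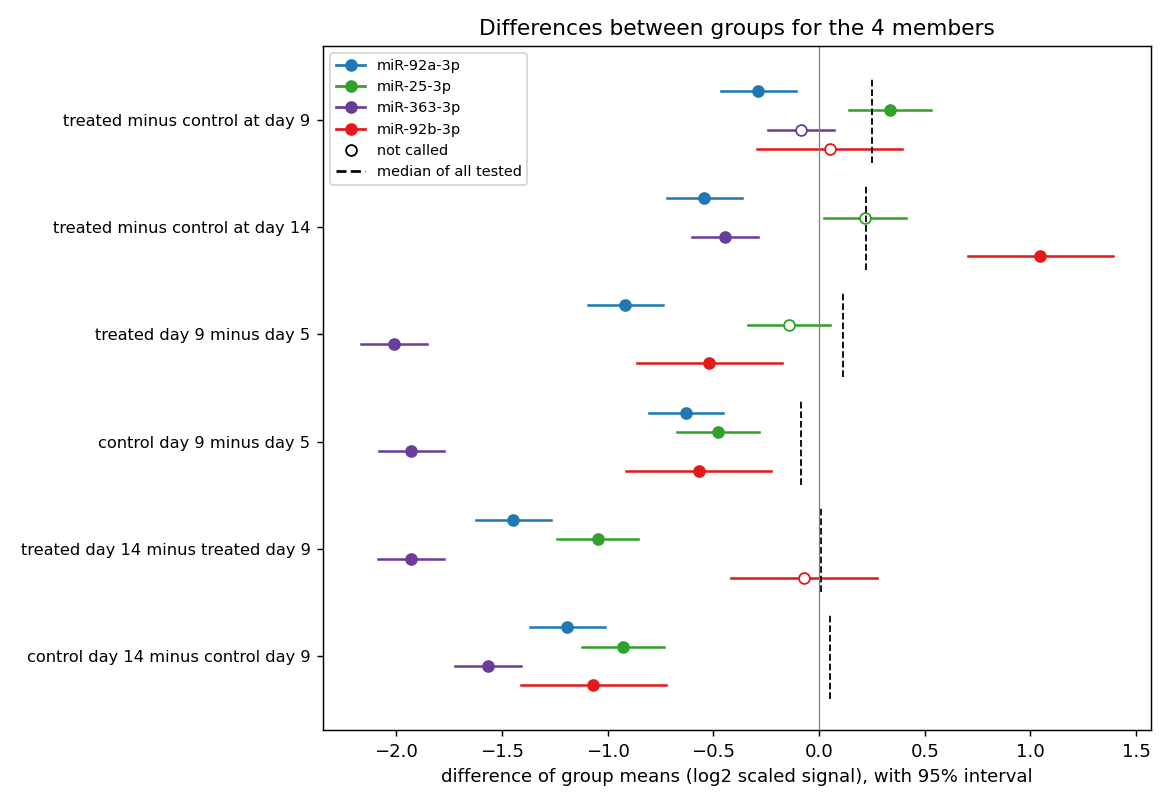
Difference between group means (log2 scaled signal, horizontal axis) for the 4 members in 6 comparisons; points are limma estimates, filled where called, lines are 95% intervals and dashed lines the median of the 306 tested miRNAs. The points of the between-day comparisons lie below 0, and at day 14 the treated minus control points run from -0.54 for miR-92a-3p to 1.05 for miR-92b-3p.

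Between days the direction was shared. Treated day 9 cells had lower levels than day 5 cells for 3 of 4 members, all but miR-25-3p, where 21.2% of the tested miRNAs were called lower. Control day 9 cells had lower levels than day 5 cells for 4 of 4, where 35.3% were called lower and 59.2% in either direction. From day 9 to day 14, 3 of 4 members fell in treated cells, all but miR-92b-3p (31.4% of the tested miRNAs were called lower), and 4 of 4 in control cells (23.5% called lower). No member was called higher in any comparison between days, whereas 37.9% (treated) and 23.9% (control) of the tested miRNAs were higher at day 9 than at day 5, and 35.6% and 31.4% higher at day 14 than at day 9. In either direction, 59.2% were called from day 5 to treated day 9, 67% from treated day 9 to day 14 and 54.9% from control day 9 to day 14. The groups did not overlap for 2 members between treated day 9 and day 5 (62.1% of the tested miRNAs), 3 between control day 9 and day 5 (57.8%), 3 between treated day 14 and day 9 (76.1%) and 4 between control day 14 and day 9 (58.8%). Sizes differed: from day 5 to treated day 9 they ran from -2.01 for miR-363-3p to -0.14 for miR-25-3p, against a median over all tested miRNAs of 0.11. The comparisons of treated and of control day 9 cells with day 5 share the day 5 arrays. The levels of miR-92b-3p at day 9 overlapped those of day 5 in both treated (-0.52, adjusted p = 0.012) and control cells (-0.57, adjusted p = 0.0073), because day 5 replicate 2, at -2.27, lay within the day 9 range. The control day 9 arrays lie on the other slide from day 5, and with slide as a block 2 of the 4 declines to control day 9 were called, those of miR-92a-3p and miR-363-3p. With the all-probe percentile only miR-363-3p was called lower in control day 9 than in day 5 cells, and 49 instead of 108 of the 306 tested miRNAs were.

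The members were also compared as ratios within each array, where a scale factor of the whole array cancels unless a member stands at the floor. A pair counted as unequal only if limma called the ratio with either member as the denominator. At day 9, 2 of 6 pairs changed unequally between treated and control cells; at day 14, 5 of 6 did. With slide as a block 0 pairs did at day 9 and 4 at day 14, the latter resting on treated day 14 replicate 3. Normexp left 1 at day 9. The higher floor left 3 at day 14, where miR-92b-3p and miR-363-3p stood at that floor in both groups. Ratios to miR-92a-3p were called for 74.8% of the tested miRNAs at day 9 and 87.2% at day 14, ratios to miR-25-3p for 51.5% and 38%, ratios to miR-92b-3p for 35.4% and 84.9%, and ratios to miR-363-3p for 55.4% and 81.6%. Day 14 ratios to miR-363-3p rest on the floor in treated cells, so their sizes and intervals are not measured differences. The near-identical miR-92b-3p and miR-92a-3p changed unequally at day 14. Their log2 ratio averaged -2.99 ± 0.12 in treated cells of day 14 against -4.58 ± 0.07 in control cells (SD, n = 3 each). This is a 3.01-fold difference (1.59 ± 0.12, SE, larger adjusted p = 5.1e-08 in limma). With normexp the difference was 0.77, still called. It was also called with the mean of all probes (0.75), though only 1 of the 4 miR-92b-3p probes was above background on any array. With the higher floor the called difference of 0.54 is that of miR-92a-3p alone, since miR-92b-3p stood at the floor in both day 14 groups. At day 9 it averaged -4.37 ± 0.09 in treated cells and -4.71 ± 0.08 in control cells, which was called with only 1 of the denominators (0.34, larger adjusted p = 0.11).

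The ratio of miR-25-3p to miR-92a-3p was higher in treated cells at both days. It averaged -0.62 ± 0.09 in treated and -1.24 ± 0.12 in control cells at day 9, and -0.22 ± 0.12 in treated and -0.98 ± 0.06 in control cells at day 14 (SD, n = 3 each). The differences were 0.62 (larger adjusted p = 0.0010 in limma) and 0.76 (larger adjusted p = 0.00027), and their change between the days, 0.14, was not called (larger adjusted p = 0.67). At day 9 the call was lost with slide as a block (0.42, larger adjusted p = 0.28) and with quantile normalization (0.40, larger adjusted p = 0.11). The ratio of miR-25-3p to miR-363-3p was higher in treated cells at day 9, by 0.42, a call lost with slide as a block (0.30, larger adjusted p = 0.36) and with normexp (0.32, larger adjusted p = 0.15). Relative to miR-25-3p, miR-92b-3p was higher in treated cells at day 14 by 0.83 (larger adjusted p = 0.0047), with -2.78 ± 0.02 in treated against -3.60 ± 0.04 in control cells. It missed the threshold when slide entered as a block (0.82, larger adjusted p = 0.072) and with quantile normalization (0.51), normexp (0.11), the mean of all probes (-0.04) and the higher floor (-0.22). The pair not called unequal at day 14 was miR-92a-3p over miR-363-3p, where the floor leaves the comparison without a measured value. At day 14 no treated array overlapped a control array in the ratio of miR-92b-3p to miR-92a-3p or to miR-25-3p, or in that of miR-25-3p to miR-92a-3p.

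**Figure D3:**
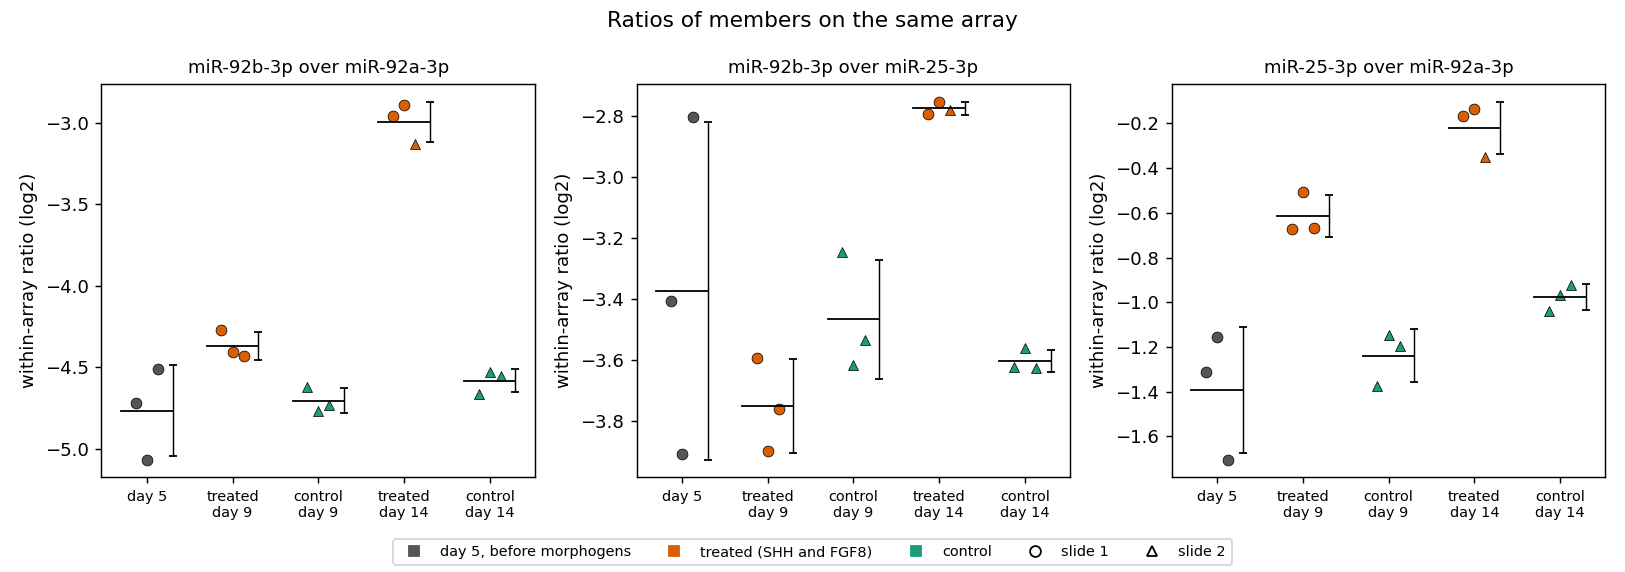
Log2 ratio of 2 members on the same array (vertical axis, own range per panel) by group, with slide as the marker shape, group mean and 1 SD (n = 3). The treated day 14 arrays lie above the control day 14 arrays in each panel, with mean ratios of -2.99 against -4.58 for miR-92b-3p over miR-92a-3p.

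The mature arms made from the same clusters were compared with the members; the primary transcripts were not measured. For miR-17-92, 10 partner arms were on the array and 8 were tested. All 8 fell from day 5 to day 9 in treated and in control cells (medians -0.998 and -1.11), as miR-92a-3p did. Of all tested miRNAs 21.2% and 35.3% were called lower there. Between treated and control cells, however, 2 of 8 were called higher and 0 lower at day 9, and 1 higher and 0 lower at day 14 (medians 0.03 and 0.01). Over all tested miRNAs, 40.8% and 39.2% were called higher and 15.4% and 14.1% lower at these days (medians 0.25 and 0.22). These counts hold for the scaling used here only. With the all-probe percentile the day 9 calls over all tested miRNAs went from 125 higher and 47 lower to 41 and 121. The partners miR-20a-5p and miR-19b-3p (the second also made from the X-linked copy) had day 14 differences of 0.01 (adjusted p = 0.97) and -0.17 (adjusted p = 0.16). With miR-92a-3p as the denominator within each array, all 8 partners were higher in treated than in control day 14 cells, from 0.37 for miR-19b-3p (adjusted p = 0.022 in limma) to 0.73 for miR-17-3p (adjusted p = 4.4e-06); 87.2% of all tested miRNAs were called in this ratio, and the ratios of miR-18a-3p and miR-20a-3p rest on the floor, which both stood at in both day 14 groups. At day 9, 3 of the 8 were, miR-17-5p, miR-17-3p and miR-20a-3p, where 74.8% of all tested miRNAs were called in either direction. The control day 9 mean of miR-20a-3p (-4.28) lay near the floor of -4.30, and the day 9 groups share no slide.

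For miR-106b-25, 3 of 4 partner arms were tested. The partner miR-93-5p, a member of the miR-17 seed group, had a treated minus control difference of 0.18 at day 9, not called (adjusted p = 0.064), and was 0.24 higher in treated cells at day 14 (adjusted p = 0.020). The partner miR-106b-5p, with -0.02 and -0.03, was not called, and miR-106b-3p was higher by 0.36 at both days (adjusted p = 0.013 each). The control day 14 mean of miR-106b-3p (-4.19) lay near the floor, although none of its day 14 arrays stood at it. It was above background on 2 of 3 control day 14 arrays and on 3 of 3 treated ones (mean -3.84). Its day 9 difference compares groups that share no slide. With the all-probe percentile the differences of miR-93-5p were -0.40 (called lower, adjusted p = 0.0060) and -0.14 and those of miR-106b-3p -0.22 and -0.02, so their directions turn with the scaling as that of miR-25-3p does. Relative to miR-25-3p within each array, miR-106b-5p was lower in treated cells by 0.36 at day 9 and by 0.25 at day 14, and miR-93-5p was not called (-0.15 and 0.02).

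For miR-106a-363, 7 of 8 partner arms were on the array and 4 were tested. None was called between treated and control cells at either day, where 56.2% and 53.3% of all tested miRNAs were. This count says little about the cluster. At day 9, miR-18b-5p (means -4.20 in treated and -4.18 in control cells) and miR-18b-3p (-4.27 and -4.30) already lay at or near the floor of -4.30. The arm miR-19b-3p is not specific to this X-linked cluster and was already counted above. Only miR-20b-5p was thus both specific to it and clear of the floor. All 4 tested arms fell from day 5 to day 9 in treated and control cells, where 21.2% and 35.3% of all tested miRNAs were called lower. The partner miR-20b-5p fell by 1.05 and 1.03, against 2.01 and 1.93 for miR-363-3p. At day 14 the treated minus control difference of miR-20b-5p was -0.04 (adjusted p = 0.77). Relative to miR-363-3p it was 0.40 higher in treated day 14 cells (adjusted p = 0.0022), which rests on the floor that miR-363-3p stood at in treated cells. The arms miR-18b-5p and miR-18b-3p were not above background on any day 14 array, so their differences of 0.00 there hold no level.

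**Figure D4:**
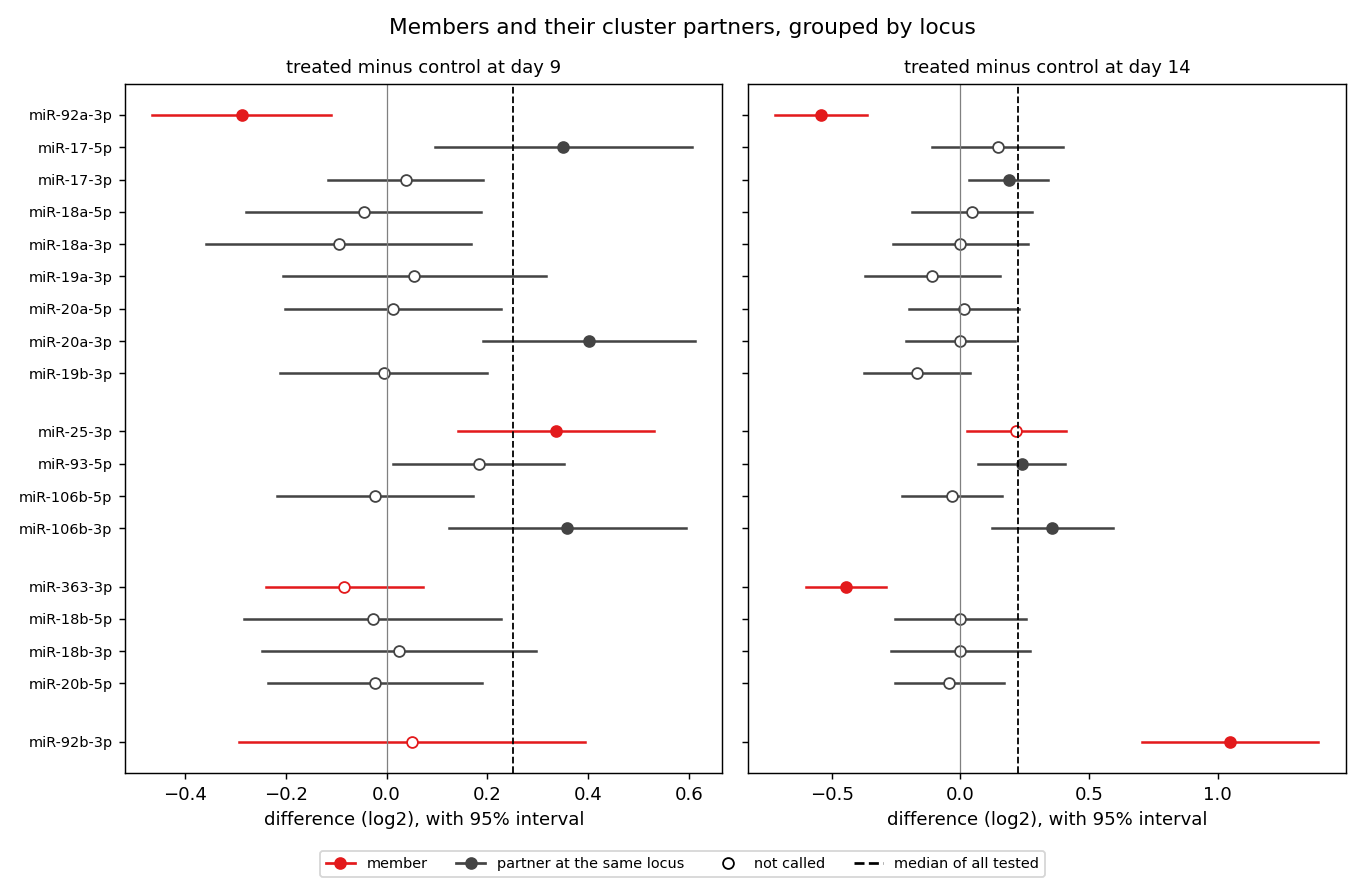
Treated minus control differences (log2 scaled signal, horizontal axis) at day 9 and day 14 for the members and all tested partner arms, grouped by locus; points are limma estimates, filled where called, lines are 95% intervals and the dashed line is the median of the 306 tested miRNAs. At day 14 miR-92a-3p (-0.54) lies below its partners (-0.17 to 0.19), and miR-92b-3p (1.05) has no partner.

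Of the seed mates outside the family, the pluripotency-linked miR-367-3p had levels of -0.66, -0.53 and -1.18 at day 5. At day 9 they were -2.94, -2.56 and -2.66 in treated cells and -3.10, -2.67 and -2.86 in control cells, and at day 14 -3.68, -3.69 and -3.96 in treated cells and -3.46, -3.67 and -3.62 in control cells. It was not called between treated and control cells at day 9 (0.16, adjusted p = 0.43) or at day 14 (-0.19, adjusted p = 0.36), and fell by 1.93 to treated day 9 and by 2.08 to control day 9. The other, miR-32-5p, lay near the floor and was above background on 1 of 3 day 5 arrays. It was above background on all 3 treated day 9 arrays (-3.84, -3.79 and -3.81) and on 0 of 3 control day 9 arrays, at least 1.30-fold higher in treated cells. The bound sets the treated level against the dimmest signal still above background on a control array, or against the floor where the floor was higher. The tested set holds miR-32-5p only because all 3 treated day 9 arrays were above background. A test of this group is therefore not independent of the filter and gives no separate support. The limma call (adjusted p = 3.0e-06) is of the difference of 0.48 from the floor, not of that bound. Its spread is narrowed by the floor, at which all arrays of control day 9 and both day 14 groups stood (SD 0). The day 9 groups also share no slide. The effect of the floor on this p was not tested. On the day 14 arrays it was below background in both groups. Of the 5 opposite arms of the member hairpins, only miR-92b-5p was above background, on 1 array, and none was tested.

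As a description over the 15 arrays, which share groups, slides and scaling, the profile most like that of miR-25-3p was that of its partner miR-93-5p (Pearson r = 0.990), then miR-374c-5p (0.972) and miR-20a-5p (0.958). For miR-363-3p they were miR-20b-5p (0.987), miR-19b-3p (0.986) and miR-19a-3p (0.984). For miR-92a-3p they were the member miR-363-3p (0.966), miR-19b-3p (0.964) and miR-149-5p (0.961). For miR-92b-3p, which has no cluster partner that could appear, none of the 3 was a member: miR-202-3p (0.922), miR-298-5p (0.911) and miR-744-5p (0.901). Among the members r ran from 0.614, for miR-92b-3p with miR-92a-3p, to 0.966.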

How the data were processed

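The samples were hybridized to 15 Agilent 1-colour miRNA arrays. Spot signals in the deposited scanner tables are intensity values of the Cy3 dye from Feature Extraction 11.0.1.1 (per the file headers), without normalization between arrays. Further columns hold data of another kind (other) per the file headers: flags for above-background, saturated and outlier spots. The authors' deposited series values are intensity values too, linear and not centred (column medians -0.0215 to 0.700), and 40.7% to 53.2% of the probes in 14 of 15 columns equal the outlier-free scanner mean within 0.1%; how the authors averaged the rest is not given in the sources used here. There, 86.0% of probes are equal in treated day 14 replicates 1 and 2, so both were merged into 1 replicate, and these values served as an alternative only. Limma 3.20.9 is listed in the submitters' processing notes with no role given.

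Background-subtracted signals of non-outlier spots were averaged per probe, scaled to the 75th percentile, floored and log2-transformed. As floor, the lowest scaled above-background signal of each array was taken and the median of these 15 values used. Detection of a probe required the flag on 50% or more of its spots, and the brightest probe stood for its miRNA. One limma 3.58.1 model held the 5 groups (two-sided tests, 10 residual degrees of freedom; R 4.3.3, jsonlite 2.0.0 and, at version 1.17.8, data.table). The same fit was run on ratios to each member. The fit was tested on simulated data. Alternatives were the scaling, normexp background, a higher floor, the mean of a miRNA's probes, no filter on dim miRNAs, the deposited series values, slide or replicate number as a block, and each array left out. Normexp was run on the median spot signal in place of the mean signal that had been planned. The arrays' number limits the precision. The members, their partners, seed mates, opposite arms and marker lists, and the rule of 3 most alike miRNAs per member, were chosen with earlier results of these data known. Plots used Python 3.11.15 with numpy 2.4.6, matplotlib 3.10.9 and pandas 2.3.3.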

Additional observations from a re-analysis of the deposited data

Results flagged for a closer look

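The treated minus control difference changed between day 9 and day 14 for 2 members by limma's test of that change (interaction of treatment and day). For miR-92b-3p it was 1.00 higher at day 14 than at day 9 (log2, adjusted p = 0.0045), with control day 14 arrays below all others. For miR-363-3p it was -0.36 (adjusted p = 0.015), with all 3 treated day 14 arrays at the floor. The miR-363-3p value turned to 0.056 with the all-probe percentile and 0.064 with the higher floor, and was not called with quantile normalization, normexp or the mean of its probes; that of miR-92b-3p was not called with normexp or the higher floor.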

How the results depend on the processing

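The 15 arrays were left out in turn and 9 other alternatives were run; differences are treated minus control on the log2 scale and p-values are limma's, adjusted. No alternative reversed the day 14 directions of miR-92a-3p, miR-92b-3p or miR-363-3p, although with the 4 times higher floor those of miR-92b-3p and miR-363-3p were both 0.00 and no longer called. With that floor the changes between days were -0.011 for miR-92b-3p and 0.064 for miR-363-3p, 2 members instead of 4 fell from control day 9 to day 14, and 3 instead of 5 pairs were unequal at day 14. The all-probe percentile gave miR-25-3p -0.24 at day 9, -0.16 at day 14 and 0.087 for the change between days, miR-92b-3p -0.53 at day 9, miR-363-3p -0.66 at day 9 (now called) and 0.056 for the change, and 1 member lower in control day 9 than day 5 cells. Quantile normalization gave miR-92a-3p -0.17 at day 9 (not called) and -0.51 for the change (called), miR-92b-3p -0.38 at day 9, and miR-363-3p -0.52 at day 9 (called) and -0.11 for the change (not called). Normexp gave miR-25-3p 0.29 at day 9, miR-92b-3p 0.30 at day 14 and 0.26 for the change, and miR-363-3p -0.27 for the change, none called, and 1 unequal pair at day 9. The mean of all probes gave miR-25-3p 0.30 at day 14 (called), miR-363-3p -0.13 for the change (not called) and 4 unequal pairs at day 9. With slide as a block the day 9 differences were 0.22 for miR-25-3p and -0.21 for miR-92a-3p, neither called, and -0.074 for miR-92b-3p. That block left 2 members lower in control day 9 than day 5 cells and 0 unequal pairs at day 9. The day 14 differences with it were -0.49, 0.96 and -0.45 for miR-92a-3p, miR-92b-3p and miR-363-3p. These were still called, but each is treated day 14 replicate 3 minus the control mean and rests on 1 treated array. The cause of these changes was not tested, beyond the higher floor, which sets both groups to 1 value. Leaving out each array gave miR-25-3p at day 14 a range of 0.19 to 0.26, miR-92b-3p at day 9 -0.0042 to 0.13, and miR-363-3p at day 9 -0.17 to -0.032, called only without control day 9 replicate 1 (adjusted p = 0.046). Deviations of same-numbered arrays correlated at -0.22 to 0.21 between treated and control day 9, and at -0.24 to -0.06 at day 14. Among the pairs of groups compared, none had all 3 correlations over 0.1, though treated day 14 with day 5, which were not compared by a test, had 0.12 to 0.37. The samples were taken to share only a number. A replicate block changed no call, with miR-92b-3p at 1.05 at day 14. Signal near background limits miR-92b-3p and miR-363-3p at day 14.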
